A study of Mus musculus with 4 samples.

Results

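The genes described here are 48 transcription factors of embryonic development that Polycomb complexes hold silent in many adult tissues: members of the PAX, SOX, forkhead, T-box, homeobox and ZIC families, with Wt1 and Olig2. They were listed by symbol, with no rule on their measured values, and all 48 were found among the 19938 genes that the array measures under a single symbol. The data come from epithelial cells shaken off the colon of C57BL/6 mice, 6 to 8 weeks old and sex-matched, on day 12 of a colitis-associated cancer model (azoxymethane at 10 mg/kg, then dextran sulfate sodium at 3.5% in the drinking water for 5 days). All 4 groups received both agents. There was 1 Affymetrix Mouse Gene 1.0 ST array for each genotype: Bmi1ΔIEC Mel18ΔIEC (DKO, both genes deleted), Bmi1ΔIEC (Bmi1_KO), Mel18ΔIEC (Mel18_KO) and WT. The labels name the deletions by ΔIEC, intestinal epithelial cells, while the sources used here do not state the line that drives them, the number of mice behind an array or the deleted exons. No sorting step is described, so cells released with the epithelium were measured with it.

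Bmi1 and Mel18 (gene symbol Pcgf2) are alternative subunits of Polycomb repressive complex 1, which binds chromatin marked by Polycomb repressive complex 2 and puts a ubiquitin on histone H2A. Genes under this control are typically regulators that set the identity of other tissues: nerve, muscle, heart, kidney or foregut. Loss of the complex can let such genes be transcribed in a tissue where they are normally off, which makes them a usual readout of Polycomb function. The arrays measure RNA only, so whether Polycomb binds any of these genes in these cells was not measured.

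Values are log2 intensities after RMA, a standard Affymetrix normalization, and a difference of 1 on this scale is a 2-fold difference. A gene was called dim when its highest array read below 6, where signal lies near background, and a member was counted as higher or lower when 2 values were at least 1.5-fold apart (0.585). With 1 array per genotype, the spread between replicates is unknown for every difference, and this number of arrays sets the precision. An exact one-sided permutation test of 1 array against 3 cannot go below 0.25. In bulk RNA, fewer cells of a type and less RNA per cell cannot be told apart.

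The arrays of the series differed in ways that touch every comparison below. DKO stood apart, with Pearson correlations across 12526 genes of 0.878 to 0.906 with the other arrays, which correlated with each other at 0.978 to 0.982. WT carried seminal vesicle transcripts: the 11 measured genes of that list summed to an intensity of 16423 on WT and to 191, 406 and 192 on DKO, Bmi1_KO and Mel18_KO. The comparison of DKO with the mean of both single deletions leaves the WT array out. Bmi1 read 7.64, 7.43, 6.999 and 7.25 on DKO, Bmi1_KO, Mel18_KO and WT, and Pcgf2 read 6.81, 6.72, 6.84 and 6.96. Neither transcript was therefore 1.5-fold lower where its deletion is stated, and the probe sets may lie outside the deleted parts, so every direction rests on the labels. All 10 genes of an epithelial list, such as Epcam and Vil1, were at least 6 on their highest array, and 0 of them were 1.5-fold apart in any of the 4 comparisons.

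The 48 genes gave low signal on these arrays, as a rule at or near background. Of the 48, 22 were dim on all 4 arrays, 25 had a highest array between 6 and 8, and 1, Foxa1, lay above 8. Over all 19938 genes, 62.8% reached 6 and 37.5% reached 8. The median of the members' highest values was 6.05, against 6.99 over all genes. Only 14 of the 48 read at least 6 on all 4 arrays. Probe sets differ in how strongly they bind, so these levels say whether a signal rose above the dim range and do not rank the members' transcripts.

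**Figure D1:**
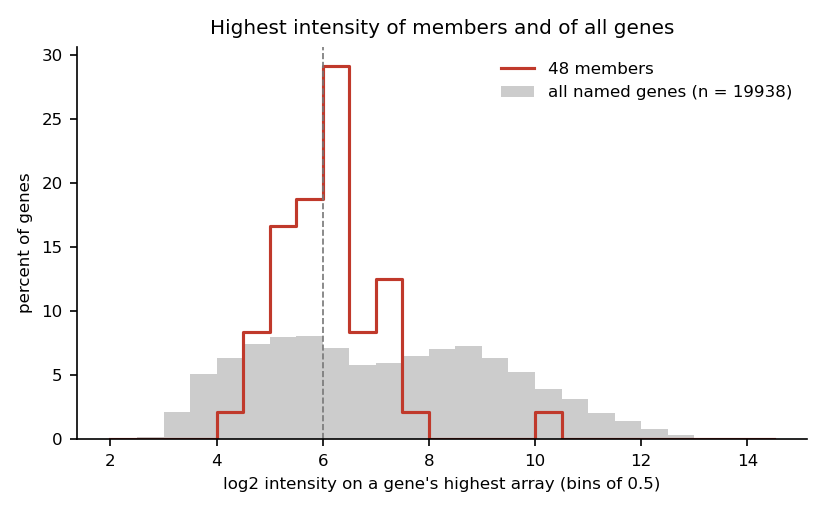
Share of genes (percent, vertical axis) by the log2 intensity of their highest array (horizontal axis, bins of 0.5), for all 19938 named genes (grey bars) and for the 48 developmental transcription factors (red line); the dashed line is the limit of 6. The members crowd around the limit, with 22 below it and 1 gene, Foxa1, above 8.

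The members nearest the limit were Nkx2-2, at 6.001 on DKO, and Zic2, at 6.02 on DKO, just inside it, and Pax2, at 5.95 on Mel18_KO, just outside it. Of the 26 members that passed, 5 did so through DKO alone: Pax3, Sox2, Nkx2-2, Zic2 and Otx1. A member that passes only where it is high is bound to be higher there, so counts among the 26 are given beside the counts over all 48.

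**Figure D2:**
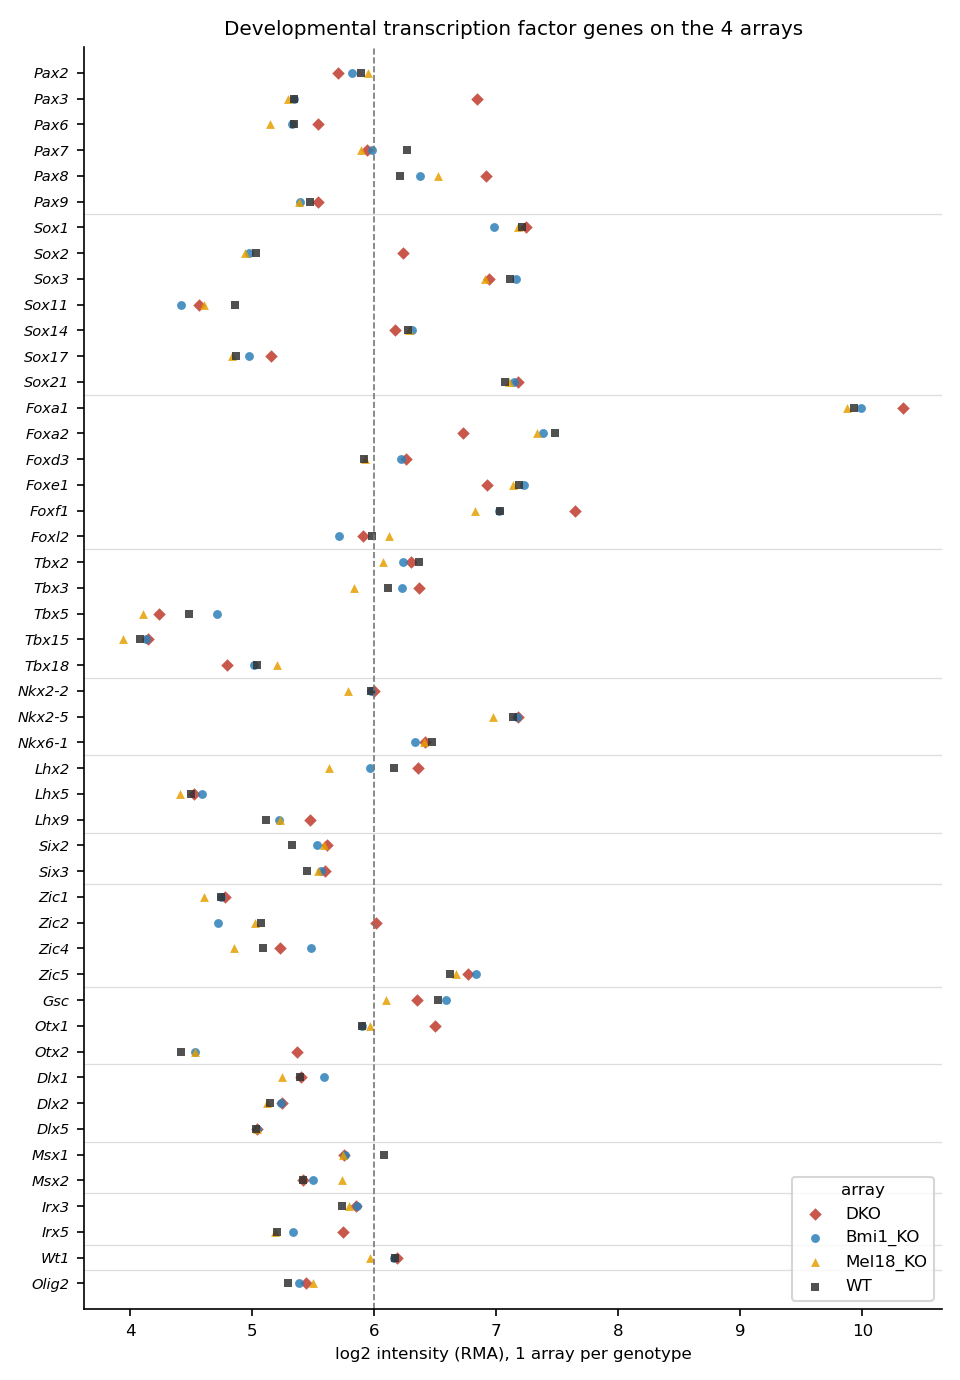
Log2 intensity (horizontal axis) of each of the 48 members (rows, grouped by family) on the arrays of DKO (red diamonds), Bmi1_KO (blue circles), Mel18_KO (orange triangles) and WT (black squares); the dashed line is the limit of 6. For most members the 4 symbols lie within 1.5-fold of each other (37 of 48). Pax3, Sox2, Zic2, Otx2 and Foxf1 have DKO alone at least 1.5-fold to the right, and Foxa2 has it alone that far to the left.

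Against WT, 7 of the 48 members were at least 1.5-fold higher on DKO (Pax3, Sox2, Otx2, Zic2, Pax8, Foxf1 and Otx1) and 1, Foxa2, was lower. Over all 19938 genes 9.99% were higher and 12.9% lower in the same comparison, so the share of members higher (14.6%) was not far from the background and the share lower (2.08%) was below it. Among the 26 members that passed the limit, 6 were higher and 1 lower, where 14.3% and 20.2% of the 12526 genes that passed were. At 2-fold, Pax3 and Sox2 were higher and 0 members lower, against 7.33% and 8.19% of the genes that passed. DKO was 1.5-fold above each of the 3 other arrays in 5 of the 48 members (Pax3, Sox2, Otx2, Zic2 and Foxf1), against 7.01% of all genes, and below each of them in 1, Foxa2, against 9.21%. The balance over all genes depended on the scaling: 17.1% were higher and 16.6% lower after cyclic loess, 12.3% and 23.4% after centring each array on the median of all probe sets, and 18.7% and 15% after centring on the median of the genes that passed. Over all 48 members, 6, 5 and 8 were higher under these scalings and 1 lower in each. Among members that passed the limit the counts were 4, 3 and 6 higher and 1 lower, because Zic2 read below the limit after cyclic loess and after centring on all probe sets while its difference stayed past 1.5-fold. Otx1 fell short of 1.5-fold under both (0.56 and 0.52) and Foxf1 under the second (0.53). With 32 added to every intensity before the log, which shrinks differences of dim genes, Zic2 (0.56), Pax8 (0.53), Foxf1 (0.51), Otx2 (0.46) and Otx1 (0.42) fell short of 1.5-fold, and Pax3 and Sox2 were the 2 members left. The median difference was 0.06 over the 48 and 0.01 over all genes. Most members differed little: 37 of the 48 spanned less than 1.5-fold over all 4 arrays, as did 69.7% of all genes.

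Below 6 on Bmi1_KO, Mel18_KO and WT were 27 members, and 5 of these (Pax3, Sox2, Zic2, Otx2 and Otx1) were at least 1.5-fold higher on DKO than on WT, with 0 lower. Of all 7799 genes below 6 on these 3 arrays, 5.44% were higher and 0.705% lower. On DKO 5 of the 27 reached 6, against 4.96% of those genes. By the stricter count, in which DKO had to exceed each other array by 1.5-fold, 4 of the 27 (Pax3, Sox2, Zic2 and Otx2) stood out, against 3.55% of the 7799 genes. No member below 6 on the 3 others stood out in this way on Bmi1_KO, Mel18_KO or WT, where the shares of all such genes were 0.0532%, 0.0805% and 0.36%. This grouping by level was chosen after the data were seen, and a gene near background has little room to read lower. The 7799 genes were also not matched in level to the 27 members, because they include genes dimmer than any member. A highest array between 3.5 and 4, for example, was found for 5.09% of all genes and 0 members.

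Pax3, a paired box factor of neural crest and skeletal muscle precursors, showed the largest difference between DKO and WT among the probe sets used for the 48; the second set of Zic5 differed by slightly more. It read 6.84 on DKO and 5.34, 5.30 and 5.34 on Bmi1_KO, Mel18_KO and WT. The 3 other arrays lay within 0.05 of each other, and DKO lay 1.495 above the highest of them (2.82-fold over WT). Of the 7799 genes below 6 on those arrays, 0.744% lay as far above them on DKO. Such shares, here and below, are ranks and not p-values. The group was chosen after the data were seen, and the members ranked are those high on DKO. Over all 19938 genes the 97.5th percentile of the difference between DKO and WT was 1.47, so Pax3 (1.495) was only just past it. Pax8, a factor of thyroid and kidney, read 6.91 on DKO and 6.38, 6.52 and 6.21 on Bmi1_KO, Mel18_KO and WT. Here the single deletions lay between DKO and WT, and the difference of 0.71 from WT (1.63-fold) shrank to 0.46 against the mean of the single deletions, short of 1.5-fold. The other paired box genes were level: Pax2 of the kidney, Pax6 of the eye and endocrine cells, Pax7 of muscle stem cells and Pax9 of the pharynx differed between DKO and WT by -0.33 to 0.20.

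Sox2, a factor of pluripotent and neural stem cells and of the stomach and oesophagus, had nearly the same pattern as Pax3. It read 6.24 on DKO and 4.97, 4.94 and 5.03 on Bmi1_KO, Mel18_KO and WT. The 3 other arrays spanned 0.09, and DKO was 1.21 above the highest of them (2.31-fold over WT). As far above them lay 1.15% of the 7799 genes below 6 on those arrays. Over all 19938 genes the 97.5th percentile of the difference between DKO and WT was 1.47, and Sox2 (1.21) lay below it. The other members of the family did not follow: Sox1 and Sox3 of neural progenitors, Sox14 and Sox21 of the nervous system, Sox11 of young neurons and Sox17 of definitive endoderm and endothelium differed between DKO and WT by -0.30 to 0.29. Sox17, dim on all arrays, was highest on DKO at 5.15, against 4.97, 4.83 and 4.87.

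The promoters of 3 members are printed here to show how they differ in CG dinucleotides, since Polycomb targets of the vertebrate genome lie mostly in regions dense in them. Sox2 is printed because it read below 6 on all arrays but DKO, Pax8 because it read above 6 on every array and was higher on DKO than on WT, and Foxa1 because it alone was bright. Each sequence runs 5′ to 3′ from 250 bases before to 50 bases after the RefSeq start (GRCm38.p6), with each CG in capitals: Sox2 at chr3:34649745-34650044 on the plus strand, Pax8 at chr2:24475550-24475849 on the minus strand and Foxa1 at chr12:57546062-57546361 on the minus strand.
Sox2: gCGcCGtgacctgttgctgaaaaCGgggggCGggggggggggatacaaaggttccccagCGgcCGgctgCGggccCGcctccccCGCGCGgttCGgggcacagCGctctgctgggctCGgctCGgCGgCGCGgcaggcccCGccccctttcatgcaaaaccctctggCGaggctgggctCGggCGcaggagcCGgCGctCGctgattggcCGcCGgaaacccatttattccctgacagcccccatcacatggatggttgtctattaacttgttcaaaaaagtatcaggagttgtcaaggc
Pax8: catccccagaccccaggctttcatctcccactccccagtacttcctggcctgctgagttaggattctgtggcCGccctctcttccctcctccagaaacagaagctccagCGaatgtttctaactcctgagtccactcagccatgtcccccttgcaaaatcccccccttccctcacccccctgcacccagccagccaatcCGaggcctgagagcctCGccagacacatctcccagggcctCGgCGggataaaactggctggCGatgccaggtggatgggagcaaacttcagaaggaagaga
Foxa1: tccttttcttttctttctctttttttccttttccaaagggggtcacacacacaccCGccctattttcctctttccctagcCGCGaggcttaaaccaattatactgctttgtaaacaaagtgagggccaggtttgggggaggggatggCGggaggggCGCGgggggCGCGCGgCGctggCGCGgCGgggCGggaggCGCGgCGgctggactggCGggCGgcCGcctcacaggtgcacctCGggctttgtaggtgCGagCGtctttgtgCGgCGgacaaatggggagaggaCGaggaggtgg
The Sox2 promoter holds 27 CG, the Pax8 promoter 7 and the Foxa1 promoter 26. At least as many are held by 15.5%, 52.1% and 16.9% of the 32851 promoters in the table. CG reads the same on both strands, and its count is a description of these windows. The table held promoters for 33 of the 48 members (68.8%), too few for a comparison of the whole set with other genes, which is therefore void.

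The ZIC genes, zinc finger factors of the neural plate and its crest, split by probe set. Zic2 read 6.02 on DKO and 4.72, 5.02 and 5.07 on Bmi1_KO, Mel18_KO and WT. DKO was thus 0.95 above the highest other array (1.93-fold over WT), although the others themselves spanned 0.35. At least as far above the other arrays lay 1.83% of the 7799 genes. The Zic2 difference from WT (0.95) lay below 1.47, the 97.5th percentile over all 19938 genes. Zic1 and Zic4 were dim and differed by 0.03 and 0.15 between DKO and WT. The second set of Zic4, also dim, differed by -0.03. Apart from Zic4, members on the same chromosome have probe set numbers that lie together. The number of the Zic4 set used lies away from those of the other chromosome 9 members, and that of its second set lies beside them. What the Zic4 set used reads is therefore uncertain. Zic5 had 2 probe sets that disagreed. The brighter one, used for all counts, read 6.77, 6.83, 6.67 and 6.62 on DKO, Bmi1_KO, Mel18_KO and WT, a difference of 0.14 between DKO and WT. The second read 6.55, 5.19, 5.33 and 5.00, a difference of 1.54 in which DKO was alone above 6. The number of the set used lies next to those of the other chromosome 14 members, and that of the second set does not. What the second set reads is therefore uncertain, and which set reads the Zic5 transcript better was not tested.

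OTX factors pattern the forebrain, and both members were at least 1.5-fold higher on DKO than on WT. Otx2 stayed dim, at 5.36 on DKO and 4.53, 4.53 and 4.42 on Bmi1_KO, Mel18_KO and WT. DKO stood 0.83 above the highest other array, while the others spanned 0.12, and 2.26% of the 7799 genes lay at least as far above. Otx1 read 6.50 on DKO and 5.90, 5.96 and 5.90 on Bmi1_KO, Mel18_KO and WT. Its difference from WT of 0.60 was barely past 1.5-fold, and its difference of 0.57 from the mean of the single deletions fell just short of it. The call against WT ended after cyclic loess (0.56) and after centring on all probe sets (0.52), and 4.03% of the 7799 genes lay at least as far above the other arrays. The differences of Otx2 (0.95) and Otx1 (0.60) from WT lay below 1.47, the 97.5th percentile over all 19938 genes. Goosecoid (Gsc), an organizer gene of the gastrula, was level between DKO and WT (-0.17).

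The forkhead family held the only bright member and the only one lower on DKO. Foxa1, which opens chromatin for gut endoderm genes and acts in goblet and enteroendocrine cells, read 10.33 on DKO and 9.99, 9.87 and 9.93 on Bmi1_KO, Mel18_KO and WT. Foxa1 was thus plainly transcribed on all 4 arrays, which goes against its place in a list of silent genes, and DKO was higher by 0.40, less than 1.5-fold. Foxa2, its close relative with overlapping roles in gut endoderm, went the other way. It read 6.73 on DKO and 7.39, 7.33 and 7.48 on Bmi1_KO, Mel18_KO and WT. The 3 other arrays spanned 0.15, and DKO was 0.75 below WT (1.69-fold) and 0.63 below the mean of the single deletions. The Foxa1 and Foxa2 transcripts thus differed in opposite directions between DKO and WT. In the enteroendocrine marker list, which covers cells where both act, 3 of 11 genes that passed the limit were higher on DKO than on WT and 2 lower. Its 13 genes summed to an intensity of 11338 on DKO and 8956, 9180 and 11608 on Bmi1_KO, Mel18_KO and WT, with Scgn and Rfx6 dim. Neurog3, which starts the enteroendocrine lineage, read 5.60 on DKO and 7.42, 7.35 and 6.99 on Bmi1_KO, Mel18_KO and WT. The part of this cell type in the Foxa values was not tested.

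Foxf1, a forkhead factor of the gut mesenchyme and of endothelium, was higher on DKO by both of its probe sets. The brighter set read 7.64 on DKO and 7.03, 6.82 and 7.03 on Bmi1_KO, Mel18_KO and WT, a difference of 0.61 between DKO and WT (1.53-fold) that fell to 0.53 after centring on all probe sets, short of 1.5-fold. The second set read 7.66, 6.42, 6.28 and 6.17, a difference of 1.49. In both sets DKO lay above all 3 other arrays, and the size of the difference depended on the set. Markers of gut mesenchyme and endothelium differed in part in the same direction. In the fibroblast and muscle list 7 of 13 genes that passed the limit were higher on DKO than on WT and 0 lower, and its 14 genes summed to 4336 on DKO and 2768, 1803 and 2226 on Bmi1_KO, Mel18_KO and WT, with Lum dim. The other 6 did not reach 1.5-fold, and among them were Des (-0.47), Tagln (0.04) and Actg2 (0.08). In the endothelial list 8 of 9 were higher and 0 lower, and its 11 genes summed to 1521 on DKO and 831, 594 and 665 on Bmi1_KO, Mel18_KO and WT, with Tek and Erg dim. On Bmi1_KO both sums were above WT, with 1 gene higher and 1 lower in the fibroblast and muscle list and 1 higher and 0 lower in the endothelial list. Most of the rise in the fibroblast and muscle sum came from Dcn, at 9.88 on Bmi1_KO and 8.78 on WT. The median difference of the genes of that list that passed was 0.05. Foxf1 differed between Bmi1_KO and WT by -0.01 in the brighter set and by 0.25 in the second. The part of these cells in the Foxf1 difference was not tested. The other forkhead members, Foxd3 of neural crest, Foxe1 of the thyroid and Foxl2 of the ovary, differed between DKO and WT by 0.34, -0.27 and -0.07.

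**Figure D3:**
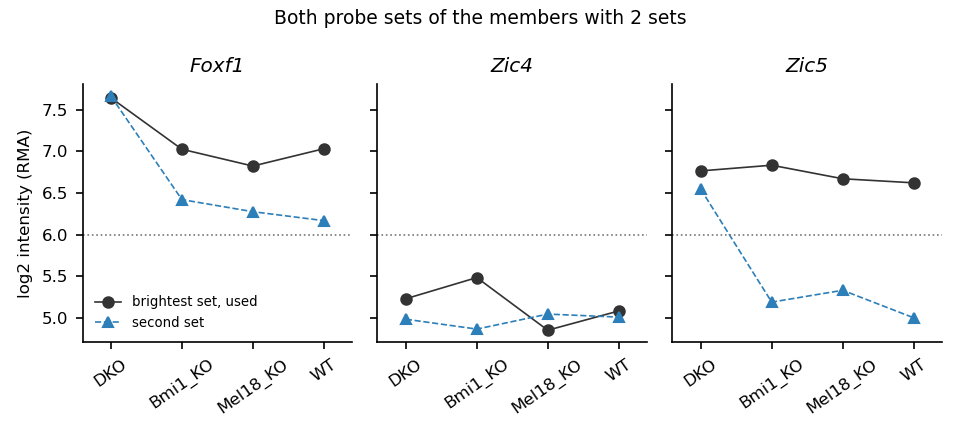
Log2 intensity (vertical axis) on the 4 arrays (horizontal axis) of both probe sets of Foxf1, Zic4 and Zic5: the brighter set used for the counts (black circles) and the second set (blue triangles); lines only join the values of a set, and the dotted line is the limit of 6. The second sets of Foxf1 and Zic5 are higher on DKO by 1.49 and 1.54 than on WT, and the sets used by 0.61 and 0.14.

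Nerve is a tissue in which Pax3, Sox2, Zic2, Otx1 and Otx2 act during development, and its markers were mostly dim. Of 8 measured genes of the enteric nerve and glia list, 6 were dim on all arrays: S100b, Gfap, Sox10, Tubb3, Elavl4 and Stmn2. The 8 genes summed to 1406 on DKO and 512, 505 and 454 on Bmi1_KO, Mel18_KO and WT. The 1 gene of the list past 1.5-fold was the receptor Ret, which read 10.15 on DKO and 7.51 on WT. Most of the sum on DKO, and nearly all of its difference from WT, came from Ret, and the median difference of the 8 genes was 0.06. The markers of squamous anorectal epithelium, a neighbouring tissue that uses Sox2 and Pax9, gave 2 of 7 genes higher on DKO than on WT and 4 lower. Its 12 genes summed to 4321 on DKO and 2989, 2775 and 3325 on Bmi1_KO, Mel18_KO and WT, with Krt4, Krt15, Trp63, Sprr3 and Krt1 dim. On each array most of the sum came from Sprr1a, at 11.69 on DKO and 10.75 on WT. The other higher gene was Dsg3 (1.77), and the 4 lower ones were keratins, among them Krt5 (-2.95) and Krt14 (-1.98). Leukocyte markers were in large part at least 1.5-fold higher on DKO than on WT: 12 of 12 mononuclear phagocyte genes, 9 of 11 neutrophil genes and 5 of 9 lymphocyte genes, with 0 lower. Their median differences were 2.15, 2.19 and 0.63. Summed intensity was 15123 on DKO and 5139, 2891 and 4151 on Bmi1_KO, Mel18_KO and WT for phagocytes, and 27719, 17778, 8890 and 12399 for neutrophils, where Mpo was dim. The neutrophil sums include Ly6g, which was bright and level (12.79 on DKO and 12.88 on WT). For lymphocytes summed intensity was 1373, 678, 744 and 591, and Jchain, the brightest of them on DKO, read 9.15 there and 6.24 on WT. The 9 measured proliferation genes were all lower on DKO than on WT. Their part in the members' differences was not tested.

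The remaining homeobox and T-box members were level between DKO and WT, or dim. Counting all families, 18 members passed the limit and stayed within 1.5-fold in all 4 comparisons besides Foxa1, and these read between 5.63 and 7.25 on every array. The T-box genes, which pattern heart, limb and breast, differed by -0.25 to 0.26, with Tbx2 and Tbx3 above the limit and Tbx5, Tbx15 and Tbx18 dim. Nkx2-2 of endocrine cells, Nkx2-5 of the heart and Nkx6-1 of the pancreas differed by -0.05 to 0.04. The LIM homeobox genes Lhx2, Lhx5 and Lhx9, of forebrain and gonad, differed by 0.02 to 0.36. Lhx2 read 6.36 on DKO and 5.96, 5.63 and 6.16 on Bmi1_KO, Mel18_KO and WT, and its 0.56 against the mean of the single deletions fell short of 1.5-fold. Six2 of the kidney and Six3 of the forebrain were dim and differed by 0.29 and 0.15. The Iroquois genes were dim too: Irx5 read 5.75 on DKO and 5.34, 5.19 and 5.20 on Bmi1_KO, Mel18_KO and WT, a difference of 0.55 that was just under 1.5-fold, and Irx3 differed by 0.11. Dlx1, Dlx2 and Dlx5 of forebrain and jaw were dim and differed by less than 0.10, while Msx1 and Msx2 of limb and tooth differed by -0.33 and 0.00. Wt1 of kidney and mesothelium differed by 0.02, with 4 of 6 mesothelium markers dim, and Olig2 of oligodendrocytes by 0.15. Apart from Otx2, the 21 dim members spanned -0.30 to 0.55.

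Without the WT array, DKO was at least 1.5-fold above the mean of Bmi1_KO and Mel18_KO in 5 of the 48 members and below it in 1. Over all 19938 genes 9.59% were higher and 12% lower. The 5 were Pax3 (1.52), Sox2 (1.28), Zic2 (1.15), Otx2 (0.83) and Foxf1 (0.72), and the lower one was Foxa2 (-0.63). Among the 26 members that passed the limit 4 were higher and 1 lower, against 14% and 18.8% of the genes that passed. After centring on the median of the genes that passed, these became 7 and 0 (all genes 17.6% and 14.4%), after cyclic loess 4 and 0 (17.2% and 14.3%) and after centring on all probe sets 3 and 1 (12.5% and 21.7%). Over all 48 members they were 9 and 0, 6 and 0, and 5 and 1. The 6 after cyclic loess included Foxa1. Otx2 (0.41) and Foxa2 (-0.51) fell short of 1.5-fold with 32 added. At 2-fold Pax3, Sox2 and Zic2 were higher and 0 members lower, against 7.33% and 6.51% of the genes that passed. Pax8 and Otx1 were past 1.5-fold against WT alone. Both comparisons use the DKO array, so their likeness is no independent check.

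**Figure D4:**
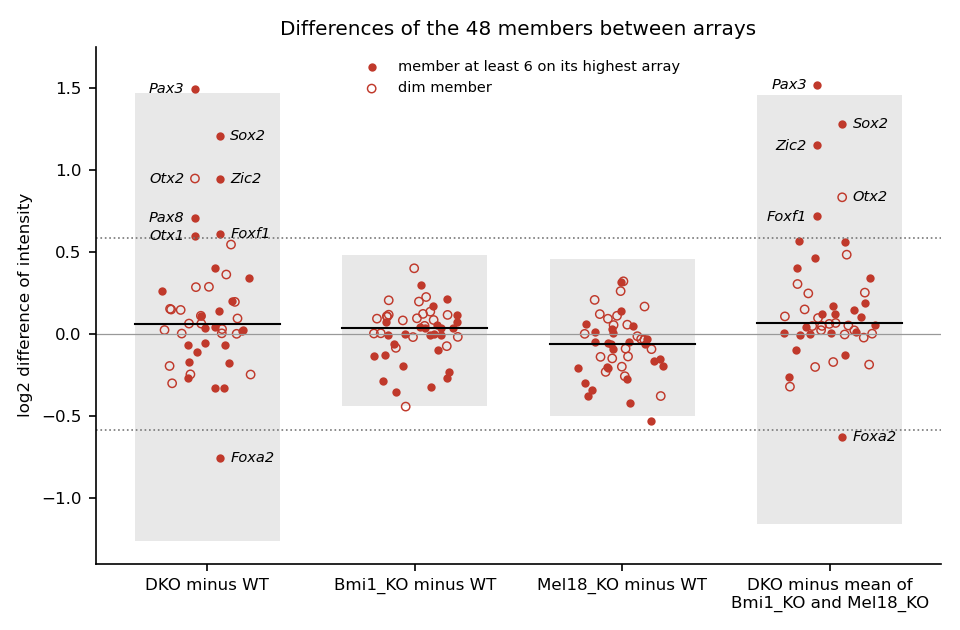
Log2 difference of intensity (vertical axis) of each of the 48 members in the 4 comparisons (columns): filled points reached 6 on their highest array, open points are dim, black lines are the members' medians, dotted lines mark 1.5-fold, and grey bars run from the 2.5th to the 97.5th percentile of all 19938 genes. Points past 1.5-fold are named and appear only in the columns that contain DKO, where the grey bars are also wider.

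No member was past 1.5-fold on either single deletion. On Bmi1_KO 0 of the 48 were 1.5-fold from WT in either direction, with differences from -0.44 (Sox11) to 0.40 (Zic4) and a median of 0.04. The Zic4 value comes from the set of uncertain target, and the second probe set of Zic4 differed by -0.14. Over all genes 1.53% were higher and 1.09% lower (2.02% and 1.53% of those that passed the limit), so a count of 0 among 48 lies near the background. On Mel18_KO 0 of the 48 passed, with differences from -0.53 (Lhx2) to 0.32 (Msx2) and a median of -0.06, against 0.978% of all genes higher and 1.66% lower (1.19% and 2.35% of those that passed). Mel18_KO was the lowest of the 4 arrays for 24 of the 47 members that stayed below 8 on every array, where it was lowest for 27.8% of the 12462 genes below 8. DKO was the highest array for 26 of the 47, against 33.8% of those genes. WT was the highest array for 6 of the 47, against 19.5% of those genes, among them Msx1 at 5.76, 5.76 and 5.74 against 6.08 and Pax7 at 5.94, 5.98 and 5.89 against 6.27, both short of 1.5-fold. Centring on all probe sets turned the balance over the genes that passed to 1.63% higher and 2.21% lower for Bmi1_KO and to 1.62% and 2.01% for Mel18_KO, and left the members at 0. These orders rest mostly on differences smaller than 1.5-fold.

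Average effects of each deletion were fitted in limma over the 12526 genes that passed the limit, with both genotypes as additive terms and 1 residual degree of freedom. At a Benjamini-Hochberg adjusted p of 0.05, limma called 0 genes for loss of Bmi1 and 0 for loss of Mel18. At an unadjusted p of 0.05 it gave 324 and 138 genes, of which 0 were among the 26 members, whose lowest unadjusted limma p was 0.132 (Pax8, loss of Mel18). Pax3 averaged 0.77 higher with loss of Bmi1 (SE 0.45, limma adjusted p = 0.849) and 0.72 higher with loss of Mel18 (SE 0.45, limma adjusted p = 0.952). Sox2 averaged 0.62 and 0.59 higher (SE 0.41, limma adjusted p = 0.849 and 0.952). For both genes nearly all of the average came from DKO, and a difference found only where both genes are deleted enters the error of this model.

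The repressor itself and further genes of its kind were measured beside the members. Of 17 measured subunits of Polycomb repressive complex 1 that passed the limit, 0 were higher and 3 lower on DKO than on WT: Pcgf6 (-1.22), Cbx7 (-0.90), which reads the histone mark, and Kdm2b (-0.60), which brings a variant complex to CG-rich DNA. Of 12 subunits of complex 2, 0 were higher and 1, the histone-binding Rbbp7 (-1.04), lower, while the methyltransferase Ezh2 differed by -0.57 and Suz12 by -0.13. Over the genes that passed, 14.3% were higher and 20.2% lower, so the lower counts of both complexes lie near or under the background. A further 64 developmental regulators outside the 48, such as GATA, POU and neurogenic factors, gave 7 higher and 0 lower on DKO than on WT, with a median of 0.01. Over all genes 9.99% were higher, close to 7 of 64. Among them 32 passed the limit, and 5 of these were higher and 0 lower, against 14.3% and 20.2% of the genes that passed. The largest of these 5 were Tfap2a, a factor of neural crest and epidermis, at 7.80 on DKO and 4.78, 4.43 and 4.74 on Bmi1_KO, Mel18_KO and WT, followed by Gata4 (2.89), Gata3 (2.57) and the pancreatic and duodenal factor Pdx1 (0.89). Gata3 is also expressed by lymphocytes, and their part in its difference was not tested. On Bmi1_KO and on Mel18_KO 0 of the 64 were 1.5-fold from WT.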

How the data were processed

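The deposited table holds intensity values on a linear scale for 35556 probe sets on 4 arrays, which the authors computed by RMA in Affymetrix Expression Console according to the submitters' processing notes. Software versions are not stated there. RMA brings the arrays to one distribution, so a shift shared by most genes is removed. From these values log2 was taken. Names came from the platform annotation: 21789 had 1 symbol, 1621 had several and were not named, and 12146 were not listed with a gene. The brightest set stood for a gene. The 48 members had identifiers in the RefSeq gene table. Comparisons are differences of log2 values with no test, and limma 3.58.1 in R 4.3.3 fitted an additive model. Its code was checked on simulated arrays with additive changes, which does not show what the model can find in these arrays. Named members follow a rule: values on all arrays for members past 1.5-fold, levels or ranges for the rest, and at most 4 genes of each other list. Otx2, as a dim member under 2-fold, and Irx5, Lhx2, Sox17, Foxa1, Neurog3, Ezh2, Suz12, Des, Tagln, Actg2 and the second probe sets were given more fully after their values were seen. So were Sprr1a, Ly6g and Dcn. Members and lists were chosen with earlier results of these data known. Alternatives were no filter, a floor of 7, log2 of the value plus 32, cyclic loess, median centring over all probe sets, averaging all sets of a gene, a 2-fold threshold, a trend in eBayes and, added after the data were seen, median centring over the genes that passed the floor. Python 3.11.15, numpy 2.4.6 and pandas 2.3.3 were used.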

Additional observations from a re-analysis of the deposited data

How the results depend on the processing

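Against WT, the count of members higher on DKO went from 6 to 1 with a floor of 7, under which 8 members remained to be counted, to 2 with log2 of the value plus 32, to 3 with median centring over all probe sets and to 2 at a 2-fold threshold. The count of lower members went from 1 to 0 at 2-fold. Against the mean of the single deletions, the higher count went from 4 to 1 with the floor of 7 and to 7 with median centring over the genes that passed the floor. The lower count, Foxa2 alone, went from 1 to 0 with log2 of the value plus 32 (-0.51), cyclic loess (-0.56), median centring over the genes that passed (-0.51) and the 2-fold threshold. Fewer members pass a floor of 7, an added 32 shrinks differences of dim genes, and a 2-fold threshold is stricter. Against WT, centring over all probe sets put Zic2 below the limit of 6, and Otx1 (0.52) and Foxf1 (0.53) short of 1.5-fold. For the other settings the cause was not tested. The counts for Bmi1_KO and Mel18_KO stayed at 0 and limma called 0 genes under each alternative run for them. Averaging the probe sets of a gene raised the higher counts to 7 and 5 by adding Zic5, through its second set of uncertain target. Of the 14 differences of single members past 1.5-fold, 7 fell short with log2 of the value plus 32, 2 after cyclic loess, 2 after centring over all probe sets and 1 after centring over the genes that passed; 0 changed sign. A filter cannot move a difference, so filters are not counted here. Centring over the genes that passed moved the median of all genes between DKO and WT from -0.05 to 0.09. Dim members are limited by signal over background. No paired analysis was possible because each genotype has 1 array.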
